A study of Mus musculus with 3 samples.

Results

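The chemokines and cytokines of the vessel wall are described here through 10 genes of the 32285 in each count matrix: the chemokines Cxcl1, Cxcl2, Cxcl12, Ccl2, Ccl7 and Cx3cl1, the cytokines Il6 and Il1b, and the NF-kappaB inhibitors Nfkbia and Nfkbiz. They were given as a list of gene symbols and found by name, and all 10 are described. Single cells of mouse arteries were profiled by droplet 3' RNA sequencing (10x Genomics Chromium), which counts unique molecular identifiers (UMIs), one for each captured transcript. There was 1 library for each of 3 groups of wild-type mice, all labelled as vascular tissue at 3 weeks. Mice of the vehicle group received no active compound. The sunitinib group received sunitinib, an inhibitor of several receptor tyrosine kinases used against cancer, and its library is labelled TKI. The third group received sunitinib together with Yoda1, an agonist of the mechanosensitive ion channel PIEZO1. Its library is labelled with Yoda1 alone, and the combination is taken from the study's design text. The sources used here do not give strain, sex, age, dose or the number of animals pooled. With 1 library a group there is no spread between animals, so no difference below has a test, and every interval is an exact 95% interval that covers counting error only.

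Chemokines are small secreted proteins that draw leukocytes along a gradient. CXCL1 and CXCL2 attract neutrophils through CXCR2, CCL2 and CCL7 attract monocytes through CCR2, CXCL12 holds and recruits cells through CXCR4 and is scavenged by ACKR3, and CX3CL1 is a membrane-tethered chemokine read by CX3CR1 on monocytes and macrophages. Many of these genes, together with Il6 and Il1b, are switched on by NF-kappaB, which also switches on its own brakes: Nfkbia encodes I-kappaB-alpha, which holds NF-kappaB in the cytoplasm, and Nfkbiz encodes the nuclear protein I-kappaB-zeta, which shapes the response of a subset of targets such as Il6.

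The bases before the transcription start of 4 members are shown because each holds a match to the NF-kappaB consensus. Promoters were taken from RefSeq (build GRCm38.p6), and 7 of the 10 members had an entry. The 250 bases before each start were searched on both strands for the 10-letter consensus, and overlapping matches were counted. Of all 32851 promoters, 1281 (3.90%) held a match. Among the members a match was found in Cxcl1, Cxcl2, Il6 and Nfkbia, and none in Cxcl12, Il1b or Cx3cl1. Capitals mark the match. In Cxcl1 and Cxcl2 the marked run is a match on each strand, shifted by 1 base, and the letters of the match on the plus strand are the same in both genes. In Nfkbia the match reads on the opposite strand. Sequences run 5′ to 3′ on the gene's strand from 150 bases before the RefSeq start and stop before the gene's first base in GENCODE vM21: Cxcl1 from chr5:90891095-90891240 (plus strand), Cxcl2 from chr5:90903749-90903870 (plus strand), Il6 from chr5:30012964-30013113 (plus strand) and Nfkbia from chr12:55492648-55492797 (minus strand).
Cxcl1: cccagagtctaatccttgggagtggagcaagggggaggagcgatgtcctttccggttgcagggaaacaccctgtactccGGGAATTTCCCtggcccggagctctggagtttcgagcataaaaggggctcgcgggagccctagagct
Cxcl2: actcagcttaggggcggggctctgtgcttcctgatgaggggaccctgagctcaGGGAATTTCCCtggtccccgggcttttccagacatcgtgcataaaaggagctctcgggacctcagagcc
Il6: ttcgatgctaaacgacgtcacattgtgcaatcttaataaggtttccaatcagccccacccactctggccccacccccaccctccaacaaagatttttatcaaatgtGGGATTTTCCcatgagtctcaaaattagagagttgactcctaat
Nfkbia: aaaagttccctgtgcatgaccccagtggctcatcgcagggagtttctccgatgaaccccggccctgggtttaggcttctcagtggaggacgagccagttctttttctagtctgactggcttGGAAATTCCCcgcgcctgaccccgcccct
The first marked base lay 71 bases before the RefSeq start in Cxcl1, 97 in Cxcl2, 44 in Il6 and 29 in Nfkbia. A match is a description of letters and not a measured binding site.

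In GENCODE vM21 (GRCm38), Cxcl1 (chr5:90891241-90893115) and Cxcl2 (chr5:90903871-90905938) are neighbours on the plus strand of chromosome 5, and Il6 lies at chr5:30013114-30019981. Ccl2 (chr11:82035571-82037453) and Ccl7 (chr11:82045712-82047525) are neighbours on the plus strand of chromosome 11. Cxcl12 lies at chr6:117168535-117181367, Cx3cl1 at chr8:94772009-94782427 (both on the plus strand), Il1b at chr2:129364570-129371139, Nfkbia at chr12:55489410-55492647 and Nfkbiz at chr16:55811375-55838899 (all on the minus strand). Ccl2 overlaps Gm17268 and Il1b overlaps Il1bos, both on the other strand, and the sources used here do not say if counting used the strand.

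The matrices held 4491, 4506 and 5118 barcodes with 73901343, 66769480 and 28364203 UMIs (vehicle, sunitinib, both compounds), and 3947, 4148 and 3130 cells passed the limits of at least 500 UMIs, 300 genes and no more than 15% of UMIs from mitochondrial genes. Between 1 and 5 kept barcodes were shared by any pair of libraries. Cells were assigned by gates on pairs of genes. By the Acta2 and Myh11 gate, smooth muscle made up 94.4% of the vehicle and 93.3% of the sunitinib library (3724 and 3872 cells), beside 131 and 156 endothelial cells (Pecam1 and Cdh5), 5 and 6 fibroblasts (Dcn and Pdgfra) and 4 and 0 phagocytes (Csf1r and Cd68). The library with both compounds stood apart, with 84 smooth muscle cells (2.68%), 329 endothelial cells, 158 fibroblasts, 106 phagocytes, 1041 B cells, 606 T cells and 55 neutrophils. Its endothelial cells also differed in kind. Kdr stood at 778 counts per 1000000 UMIs of the gated cells (CPM) against 5.53 and 4.03 in the vehicle and sunitinib libraries, Vwf at 294 against 917 and 993, and the haemoglobin gene Hbb-bs at 19611 against 4.15 and 2.30. Group, cell make-up, depth and Cell Ranger version (7.1.0 for both compounds, 6.0.0 for the others) cannot be told apart in any comparison with that library. Levels below are CPM of the summed UMIs of a gate, and are compared within a gene and not between genes.

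The members other than Il6, which was highest in fibroblasts, fell into 4 patterns over the gates with at least 50 cells in a library. Any order of gates given below covers only these gates. Nfkbia and Nfkbiz were found in each of these gates. Cxcl12 and Cx3cl1 were found in the wall cells, that is endothelial cells, fibroblasts and smooth muscle. Cxcl1 was found in endothelial cells and fibroblasts and in a small share of smooth muscle cells. Cxcl2 and Il1b were highest in neutrophils and phagocytes, and Ccl2 and Ccl7 were highest in phagocytes, with fibroblasts next.

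**Figure D1:**
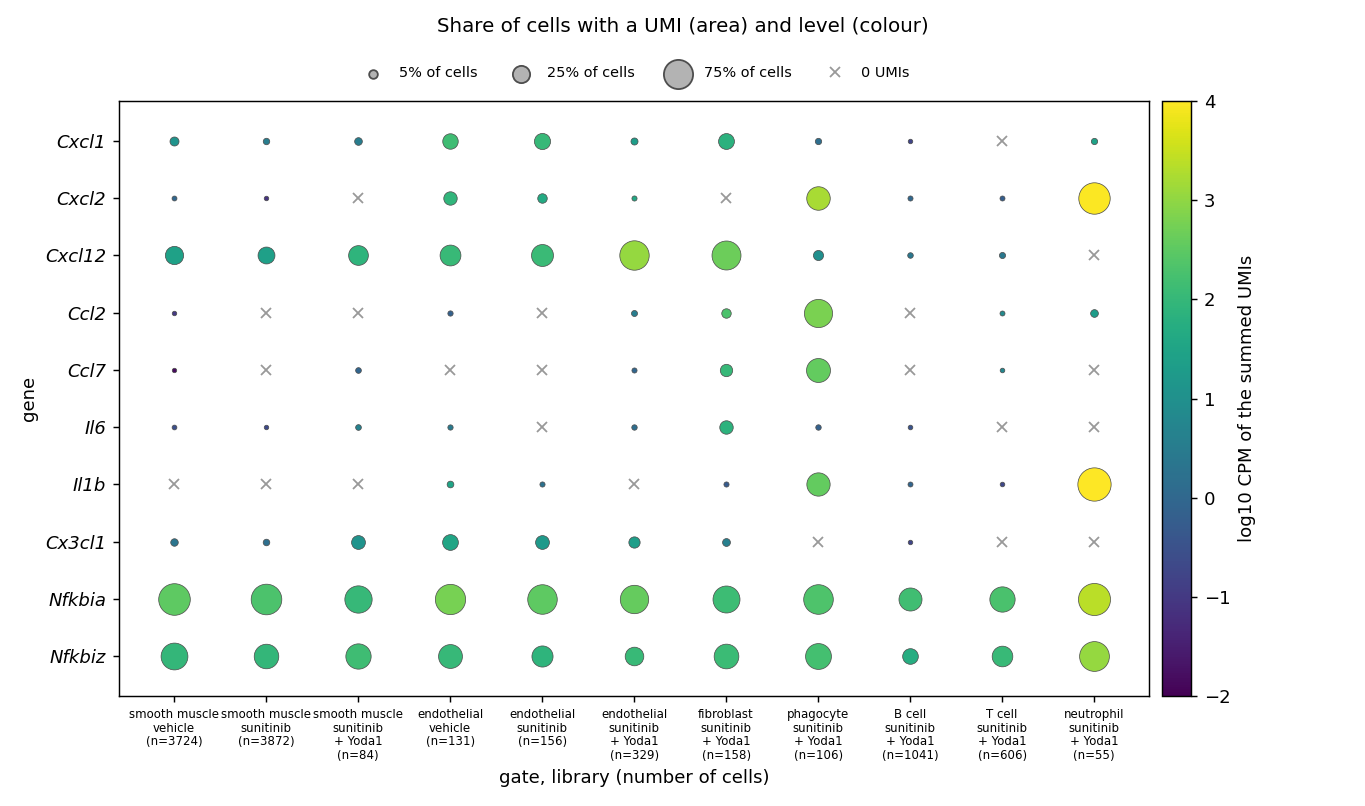
Each column is a gate in 1 library with at least 50 cells, and each row a gene. The area of a dot is the share of cells with at least 1 UMI (%), its colour the log10 CPM of the summed UMIs, and a cross marks 0 UMIs. Nfkbia and Nfkbiz fill every column, while Il1b has a cross in all 3 smooth muscle columns and reaches 98.2% of cells in the neutrophil column.

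Cxcl1, a neutrophil attractant, stood at 11.9 CPM (11.1 to 12.8) in vehicle smooth muscle, where 207 of 3724 cells (5.56%) had a UMI. In sunitinib smooth muscle it stood at 3.38 CPM (2.94 to 3.86), with 78 of 3872 cells positive (2.01%), and in the smooth muscle of the library with both compounds 4 UMIs in 3 of 84 cells gave 3.38 CPM (0.920 to 8.64). The vehicle level was the highest of the 3, and the interval of the smallest sample spanned the sunitinib level. With every cell thinned to 3000 UMIs the shares of positive smooth muscle cells were 1.94%, 0.639% and 1.27%. Endothelial cells held more: 137 CPM (118 to 157) with 19.8% of cells positive in the vehicle library, 107 CPM (92.2 to 124) with 21.8% in the sunitinib library and 20.3 CPM (14.7 to 27.2) with 2.74% in the library with both compounds. Vehicle and sunitinib intervals overlapped, and that of both compounds lay below them. Of the 44 endothelial UMIs of the library with both compounds, 27 came from 1 cell. Fibroblasts of the same library stood at 68.8 CPM with 20.9% of cells positive, whereas 1 of 1041 B cells and none of 606 T cells had a Cxcl1 UMI.

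Cxcl2, a close relative of Cxcl1, was rare in smooth muscle. The vehicle library held 66 UMIs in 15 cells (0.940 CPM, 0.727 to 1.20), the sunitinib library 5 UMIs in 4 cells (0.0793 CPM, 0.0257 to 0.185), and the 84 smooth muscle cells of the third library none, which allows up to 3.57% of cells with a UMI. Such limits cover cells in which a UMI was captured and not cells that express the gene. Endothelial cells stood at 84.3 CPM (70.0 to 101) with 14.5% positive in the vehicle library, 43.2 CPM (34.0 to 54.1) with 6.41% in the sunitinib library and 39.1 CPM (31.3 to 48.4) with 0.608% in the third. In the vehicle gate 42 of the 122 UMIs lay in 1 cell, which also held 41 Cxcl1 UMIs. The value with both compounds rested on a single cell. It held 84 of the 85 Cxcl2 UMIs and the 27 Cxcl1 UMIs named above, with 14 Pecam1 and 15 Cdh5 UMIs and no phagocyte marker UMI. Neutrophils of that library stood at 9281 CPM with 87.3% positive, and phagocytes at 1655 CPM with 48.1% positive, and these gates held 40.7% and 49.8% of the 4716 Cxcl2 UMIs of the library.

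Cxcl12, which retains CXCR4-bearing cells, stood at 27.1 CPM (25.9 to 28.4) in vehicle smooth muscle, 23.8 CPM (22.6 to 25.1) in sunitinib smooth muscle and 81.9 CPM (66.4 to 99.9) in the 84 smooth muscle cells of the third library. The positive shares were 28.3%, 24.0% and 33.3%. Of the 97 UMIs in the third value, 26 came from 1 cell that also carried 59 Dcn UMIs. In endothelial cells the levels were 108 CPM (91.5 to 126), 114 CPM (98.6 to 131) and 1121 CPM (1077 to 1166), with 37.4%, 41.7% and 76.3% of cells positive. Vehicle and sunitinib endothelial cells overlapped, and the third gate was the highest of all gates. Fibroblasts came next at 440 CPM (74.1% positive), while phagocytes, B cells and T cells lay between 2.36 and 9.16 CPM and 1.06% of B cells had a UMI, at a median depth of 4787 UMIs against 4918 in endothelial cells.

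Ccl2 and Ccl7, monocyte attractants, were nearly absent from smooth muscle and endothelial cells. Vehicle smooth muscle held 7 Ccl2 UMIs in 3 cells and 1 Ccl7 UMI, and sunitinib smooth muscle held none of either, which allows up to 0.0775% of cells with a UMI. Endothelial cells held 1, 0 and 7 Ccl2 UMIs and 0, 0 and 2 Ccl7 UMIs in the vehicle library, the sunitinib library and the third library. Phagocytes of the third library stood at 617 CPM for Ccl2 (74 of 106 cells) and 364 CPM for Ccl7 (53 of 106 cells). Fibroblasts of that library stood at 200.4 CPM for Ccl2 in 10 of 158 cells, with 259 of the 411 UMIs in 1 cell, and at 106 CPM for Ccl7 in 19 cells. In the sunitinib library a single fibroblast carried all 7 Ccl2 and all 8 Ccl7 UMIs of the library, with 12 Cxcl1 and 11 Il6 UMIs. The genes went together within a gate. Among phagocytes the 74 cells with a Ccl2 UMI stood at 457 CPM for Ccl7 and the other 32 at 26.2 CPM, and among fibroblasts the 10 cells with Ccl2 stood at 713 CPM for Ccl7 against 39.0 CPM in the rest. Of the 146 Ccl7 UMIs of these 10 fibroblasts, 76 lay in the cell with 259 Ccl2 UMIs. Cells with Ccl2 were deeper, at a median of 14131 against 10492 UMIs in phagocytes and 14178.5 against 11241.5 in fibroblasts. The part of depth was not tested.

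Il6, a cytokine that acts through IL6ST, was a fibroblast transcript in the third library, at 70.2 CPM (59.2 to 82.7) in 23 of 158 cells. Smooth muscle held 21 UMIs in 11 of 3724 vehicle cells, 13 UMIs in 3 of 3872 sunitinib cells, 11 of them in 1 cell, and 5 UMIs in 1 cell of the third library. Endothelial cells held 4, 0 and 3 UMIs. No more than 1.19% of smooth muscle or endothelial cells had a UMI in any library.

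Il1b, the precursor of interleukin-1-beta, was not detected in smooth muscle of any library. The 0 of 3724 and 0 of 3872 cells allow shares of cells with a UMI of up to 0.0806% and 0.0775%, and the 0 of 84 cells up to 3.57%. Vehicle endothelial cells held 46 UMIs in 3 cells, sunitinib endothelial cells 3 UMIs in 1 cell, and those of the third library none. In the vehicle gate 43 of the 46 UMIs lay in 1 cell that also carried 30 UMIs of 7 of the 10 phagocyte markers beside 20 Pecam1 and 2 Cdh5 UMIs. Without cells that had any phagocyte marker UMI, the endothelial gates of all 3 libraries held 0 Il1b UMIs. Neutrophils stood at 9896 CPM (98.2% positive) and phagocytes of the third library at 359 CPM (47.2% positive). The 4 phagocytes of the vehicle library held 245 of its 378 Il1b UMIs, 188 of them in 1 cell.

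Cx3cl1, the membrane-tethered chemokine, stood at 2.09 CPM (1.77 to 2.46) in vehicle smooth muscle, 1.44 CPM (1.16 to 1.77) in sunitinib smooth muscle and 11.8 CPM (6.46 to 19.8) in the third library, where 14 UMIs were counted. In endothelial cells the levels were 33.9 CPM (25.04 to 44.8), 16.7 CPM (11.2 to 24.0) and 21.6 CPM (15.9 to 28.8), with 20.6%, 15.4% and 9.73% of cells positive. The vehicle endothelial value was the highest. Its interval lay above that of sunitinib and overlapped that of both compounds, and the latter pair also overlapped. Among the phagocytes, B cells, T cells and neutrophils of the library with both compounds, 1 B cell had a Cx3cl1 UMI. Fibroblasts of that library stood at 3.90 CPM.

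Nfkbia, the cytoplasmic brake, stood at 329 CPM (325 to 333) in vehicle smooth muscle, 201 CPM (198 to 205) in sunitinib smooth muscle and 106 CPM (87.8 to 126) in the third library, with 88.3%, 82.7% and 65.5% of cells positive. The order over libraries held after thinning, at 49.8%, 42.6% and 26.6% of cells, and no 2 of the intervals of level overlapped. In endothelial cells it stood at 598 CPM (558 to 639), 321 CPM (295 to 349) and 390 CPM (364 to 418), so that vehicle was again the highest and no intervals overlapped. In the library with both compounds neutrophils stood at 2366 CPM, and fibroblasts, phagocytes, B cells and T cells between 128 and 213 CPM. The 4 phagocytes and 5 fibroblasts of the vehicle library stood at 1345 and 901 CPM, from 69 and 40 UMIs.

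Nfkbiz, the nuclear member of the family, stood at 91.9 CPM (89.7 to 94.2) in vehicle and 94.0 CPM (91.6 to 96.4) in sunitinib smooth muscle, intervals that overlapped, and at 138 CPM (118 to 161) in the third library. Endothelial cells stood at 106 CPM (90.3 to 125), 81.7 CPM (68.8 to 96.3) and 112 CPM (98.7 to 127). The positive share of smooth muscle cells was 63.1% in the vehicle library and 52.6% in the sunitinib library, and 21.1% and 20.1% after thinning. Neutrophils were the highest gate at 1137 CPM, and B cells the lowest at 55.4 CPM.

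Sunitinib was set against vehicle to see how these genes stood after kinase inhibition. In smooth muscle Cxcl1, Cxcl2 and Nfkbia were at least 1.5-fold lower in the sunitinib library (a log2 ratio beyond 0.58 in size), and no member was as far higher. Of the 10 members, 7 had at least 20 UMIs over both libraries. Among all 13980 genes with that many UMIs, 4.70% were at least 1.5-fold lower and 7.77% at least 1.5-fold higher, and the median log2 ratio was 0.09. The log2 ratio of sunitinib over vehicle was -1.82 (-2.05 to -1.60) for Cxcl1, -3.57 (-5.24 to -2.27) for Cxcl2 and -0.71 (-0.74 to -0.68) for Nfkbia. Cx3cl1 and Il6 stood at -0.54 each, with intervals of -0.93 to -0.15 and -1.66 to 0.53. The Il6 ratio rested on few cells: it was -2.93 without the cell with the most Il6 UMIs in each library and turned to 0.76 when cells were thinned to 3000 UMIs. Cxcl12 stood at -0.19 and Nfkbiz at 0.03. Under TMM and median-of-ratios scaling, which shift ratios by -0.09, Cx3cl1 and Il6 also passed the fold, giving 5 members.

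In endothelial cells 7 members had enough UMIs, and Cxcl2, Il1b, Cx3cl1 and Nfkbia were at least 1.5-fold lower with sunitinib, while none was as far higher. Among 8915 genes measured there, 5.64% were lower and 13.4% higher by that fold, and the median log2 ratio was 0.13. The ratios were -0.97 (-1.40 to -0.54) for Cxcl2, -1.02 (-1.74 to -0.33) for Cx3cl1 and -0.90 (-1.05 to -0.74) for Nfkbia. Il1b stood at -4.20, a value set by the 1 vehicle cell with phagocyte markers, and no UMI was left without it and its like. Cx3cl1 passed the fold as lower in 10 of 13 alternatives. It did not pass with deep cells left out. It also did not pass in cells without posterior Hox UMIs, at 23.3 CPM with sunitinib against 28.5 CPM with vehicle. Cx3cl1 turned to 0.35 when the CPM of each cell were averaged in place of summing UMIs. Cxcl1 stood at -0.35 (-0.65 to -0.06), and passed the fold as lower in 3 of 13 alternatives, at -1.21 with deep cells left out, -0.73 in cells without posterior Hox UMIs and -0.60 as a mean over cells. Nfkbiz stood at -0.38, and passed as lower in 4 of 13, down to -0.89. Cxcl12 stood at 0.08, and ranged from -0.42 in cells with to 1.05 in cells without posterior Hox UMIs. Nfkbia and Cxcl2 were thus past the fold in both gates, Cxcl2 in smooth muscle from 5 against 66 UMIs. Whether Cxcl1 differed more in smooth muscle than in endothelial cells was not tested.

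**Figure D2:**
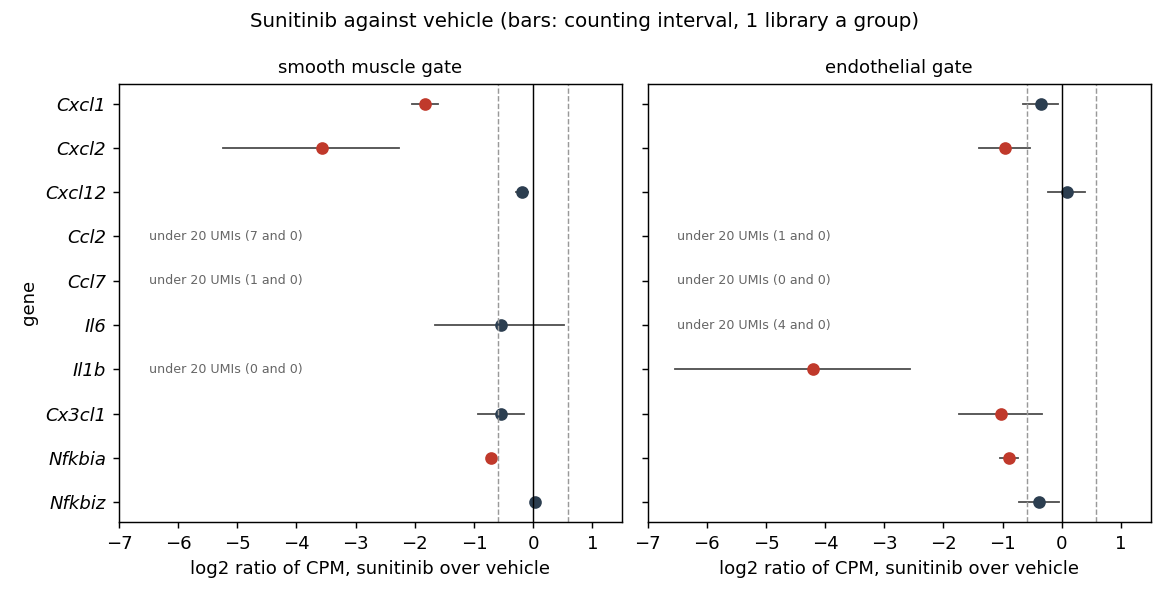
Points are log2 ratios of CPM, sunitinib over vehicle, for each member in the smooth muscle gate and in the endothelial gate, with 95% counting intervals as bars. Dashed lines mark 1.5-fold, red points lie beyond it, and members with under 20 UMIs over both libraries carry their vehicle and sunitinib UMIs instead. Cxcl2 and Nfkbia lie below the lower dashed line in both panels, and Nfkbiz and Cxcl12 lie inside the lines in both.

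Smooth muscle was also split by posterior Hox transcripts, which mark the position of a cell along the body and were found in 51.2% of vehicle and 56.4% of sunitinib smooth muscle cells. Nfkbia stood at 321 CPM in vehicle and 203 CPM in sunitinib cells with a posterior Hox UMI, and at 337 and 199 CPM in those without one. Cxcl1 stood at 12.8 and 4.02 CPM with, and at 10.9 and 2.35 CPM without. The sunitinib library was thus lower in both subsets for both genes. Cxcl12 followed the split more than the library, at 32.2 and 26.5 CPM with a posterior Hox UMI and 21.2 and 19.5 CPM without. The 66 Cxcl2 UMIs of vehicle smooth muscle came from only 15 cells, and 53 of them lay in cells without a posterior Hox UMI. The shares of positive cells were 0.551% without and 0.262% with one.

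How a level was made up differed between members. In vehicle smooth muscle, 27 cells held 50% of the Cxcl1 UMIs, against 258 cells for Cxcl12, 525 for Nfkbiz and 575 for Nfkbia. In sunitinib smooth muscle the numbers were 14, 236, 437 and 761. Cxcl1 therefore came from few cells at 4.05 UMIs per positive cell in the vehicle and 2.73 in the sunitinib library, while Nfkbia came from most cells, at 7.01 and 3.96 UMIs per positive cell.

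**Figure D3:**
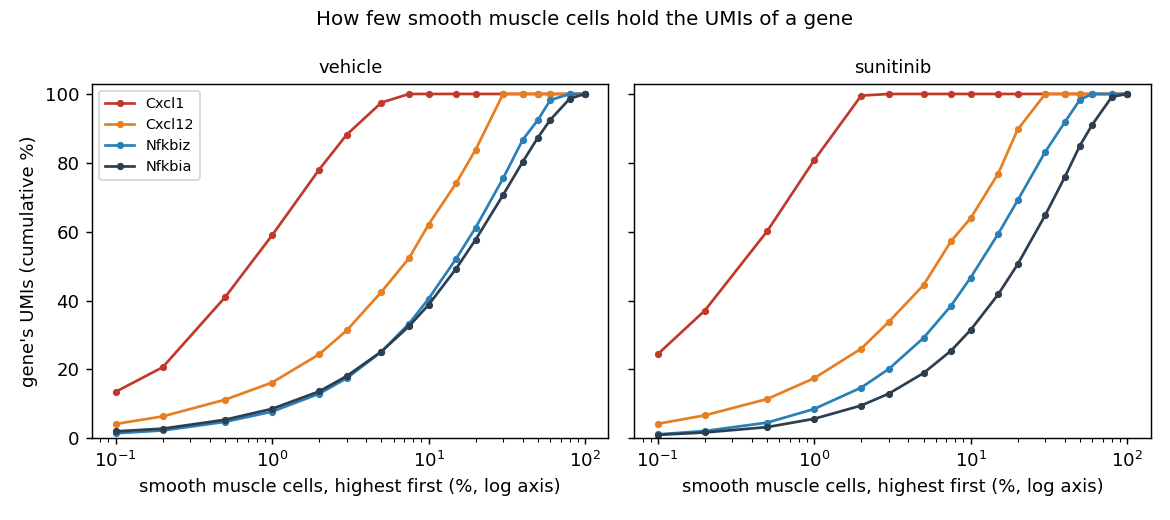
Cumulative share of a gene's UMIs (%) against the share of smooth muscle cells (%, log axis), cells ordered from the highest UMI count of that gene, in the vehicle and sunitinib libraries. The Cxcl1 curve reaches 58.9% of its UMIs in the top 1% of vehicle cells and 80.8% in the top 1% of sunitinib cells, whereas Nfkbia reaches 8.55% and 5.65%.

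Cells with and without a Cxcl1 UMI were compared for the other members, and the result differed by member and library. In vehicle smooth muscle the 207 cells with a Cxcl1 UMI stood at 605 CPM for Nfkbia and the other 3517 at 306 CPM, a log2 ratio of 0.98 (0.93 to 1.03). Cxcl2 stood at 8.55 CPM, from 45 UMIs in 7 cells, against 0.324 CPM, and Nfkbiz at 123 against 89.4 CPM. Cxcl12 did not follow, at 26.0 against 27.2 CPM. In sunitinib smooth muscle the Nfkbia ratio between the 78 cells with Cxcl1 and the rest was 0.27 (0.11 to 0.41), from 379 UMIs in the former and 12295 in the latter, and Nfkbiz stood at 131 against 93.0 CPM. None of the 5 Cxcl2 and 13 Il6 UMIs of that gate lay in cells with Cxcl1. They came from only 4 and 3 cells, in a gate with 78 cells with Cxcl1 and 3794 without. An overlap could hardly be seen with so few. In vehicle endothelial cells Nfkbia stood at 1049 CPM in the 26 cells with Cxcl1 and 401 CPM in the other 105. Cx3cl1 stood at 59.3 against 22.8 CPM and Cxcl2 at 146 against 57.5 CPM. Of the 64 Cxcl2 UMIs in the cells with Cxcl1, 42 lay in 1 cell, so the Cxcl2 value rests largely on that cell. All 46 Il1b UMIs lay in 3 of the 105 cells without Cxcl1, too few cells to compare the sides. In the sunitinib library the same endothelial split gave 388 against 280 CPM for Nfkbia and 79.8 against 20.5 CPM for Cxcl2, but 75.3 against 85.7 CPM for Nfkbiz and 16.6 against 16.8 CPM for Cx3cl1. Cells with a Cxcl1 UMI were deeper, with a median of 21876 against 16595 UMIs in vehicle smooth muscle and 17950.5 against 7076 in sunitinib endothelial cells, and the part of depth in these splits was not tested.

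Both compounds were set against sunitinib alone to see what the PIEZO1 agonist added. The comparison shares the sunitinib library with the comparison above, and in smooth muscle it sets 84 cells against 3872. In endothelial cells Cxcl12 was higher and Cxcl1 lower in the library with both compounds, while the other 4 measured members stayed within 1.5-fold. Among 10291 genes, 37.0% were at least 1.5-fold higher and 20.1% at least 1.5-fold lower, so that 57.1% of all genes were apart and 2 of 6 members past the fold is no more than the background. The log2 ratio was 3.30 (3.09 to 3.51) for Cxcl12 and -2.40 (-2.91 to -1.92) for Cxcl1. Cxcl2 stood at -0.14, and at -6.18 without the cell with the most Cxcl2 UMIs in each library. Cx3cl1 stood at 0.37, Nfkbia at 0.28 and Nfkbiz at 0.46. Beside these values stand the levels of Kdr, Vwf and Hbb-bs given above, whose part in the result was not tested. In endothelial cells with and without a posterior Hox UMI Cxcl12 stood at 960 and 1333 CPM in the library with both compounds and at 82.6 and 210 CPM in the sunitinib library.

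In smooth muscle Cxcl12 stood at a log2 ratio of 1.78 (1.47 to 2.08), Cx3cl1 at 3.03 (2.11 to 3.85), Nfkbia at -0.93 (-1.20 to -0.68), Nfkbiz at 0.56 (0.33 to 0.78) and Cxcl1 at 0.00 (-1.89 to 1.38). Cxcl12 and Cx3cl1 were thus higher and Nfkbia lower by at least 1.5-fold, 3 of 5 measured members. Among 12550 genes 36.4% were higher and 10.3% lower by that fold, 46.7% in all. The Cxcl12 ratio was 0.53 with the smooth muscle gate raised to 100 Acta2 and Myh11 UMIs per 10000, 0.64 in cells with posterior Hox UMIs and 2.53 in cells without. Of the Nfkbiz gene, 22507 of 27525 bases lie in introns, and of Cxcl12 4657 of 12833. The sources used here do not say which libraries had intron reads counted.

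Free RNA from broken phagocytes can put UMIs of Cxcl2, Il1b, Ccl2 and Ccl7 into cells of other types. Its size was taken from 8 phagocyte markers: their CPM in a gate, divided by their CPM in phagocytes, times the level of the member in phagocytes. In vehicle smooth muscle the markers summed to 22 UMIs (0.313 CPM), with Tyrobp, Mrc1, Adgre1 and Ctss at 0. That amount carries 0.0322 CPM of Cxcl2, and the measured level was 29.2-fold above it. Csf1r and Cd68, the genes of the phagocyte gate, are not among the 8. They summed to 2.49 CPM in vehicle smooth muscle and 1091 CPM in vehicle phagocytes, so the 29.2-fold depends on the markers used. Cells with and without a marker UMI are counted here with both genes added, 10 markers in all. Each of the 15 vehicle smooth muscle cells with Cxcl2 had 0 phagocyte marker UMIs. The same held for 3558 of the 3724 cells of that gate, and the source of these Cxcl2 UMIs was not tested. In vehicle endothelial cells the markers carry 2.42 CPM of Cxcl2, 34.9-fold below the measured level, and 4.93 CPM of Il1b, 6.44-fold below. The source for these vehicle values was the 4 vehicle phagocytes, with 188 of their 245 Il1b UMIs in 1 cell. With the phagocytes of the third library as source the markers carry 2.40 CPM of Cxcl2 and 0.522 CPM of Il1b. These lie 35.1-fold and 60.9-fold below the measured levels, so the Il1b fold depends on the source. All 46 Il1b UMIs lay in the 7 cells with a phagocyte marker UMI, and 43 of them in 1 cell with 30 marker UMIs. The measured Il1b level and its level from the markers are thus set by few cells, and they do not describe RNA spread over the gate. Without the 7 cells with a phagocyte marker UMI, Cxcl2 stood at 61.4 CPM in 14 of 124 vehicle endothelial cells, and at 40.6 CPM in the 152 sunitinib endothelial cells without one.

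The sunitinib library had no phagocyte, so the phagocytes of the third library served as source. In sunitinib smooth muscle the markers carry 0.0324 CPM of Cxcl2, inside the interval of the measured level. In that gate Csf1r and Cd68, not among the 8 markers, summed to 2.43 CPM, against 985 CPM in the source. In sunitinib endothelial cells they carry 4.89 CPM, 8.83-fold below the measured level, from marker UMIs that lay within 4 of 156 cells. In the third library endothelial Ccl2 (3.22 CPM, 7 UMIs) stood beside 2.70 CPM from the markers, and Ccl7 (0.921 CPM, 2 UMIs) beside 1.60 CPM. Of the 7 Ccl2 UMIs, 6 lay in cells without a phagocyte marker UMI, and the source of these UMIs was not tested. Fibroblast Ccl2 and Ccl7 were 158-fold and 142-fold above the level from the markers. B cells, which should lack Cxcl2 and Il1b, had them in 0.576% and 0.480% of cells at a median of 4787 UMIs, and neutrophils in 87.3% and 98.2% at a median of 3704 UMIs. The phagocyte markers overstate free RNA in B cells, since Ctss was present in 76.7% of them. The neutrophil markers there carry 0.683 CPM of Cxcl2 and 0.729 CPM of Il1b, beside measured levels of 1.01 and 0.842 CPM. The 35 Ccl2 UMIs of T cells lay almost all in 1 cell, with 33 Ccl2, 30 Ccl7 and 33 phagocyte marker UMIs.

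**Figure D4:**
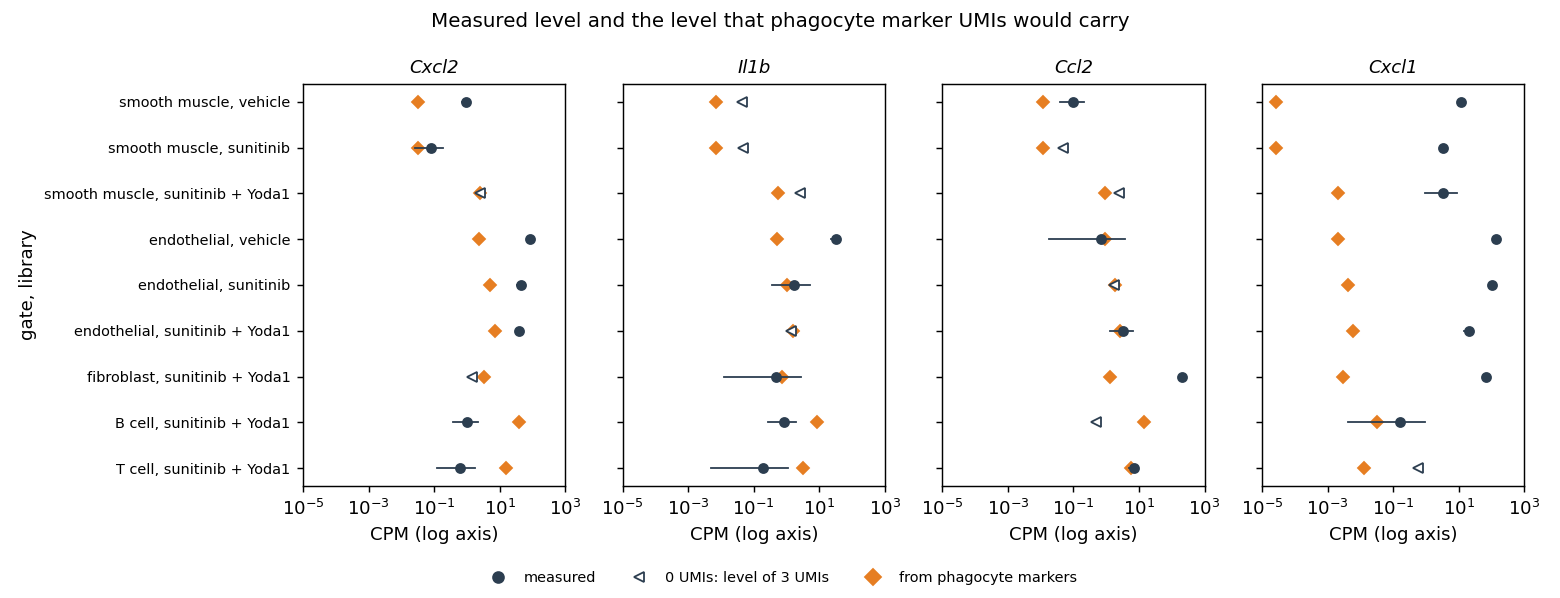
Measured CPM (circles, with 95% counting intervals) and the CPM that phagocyte marker UMIs would carry (diamonds), on a log axis, for 4 genes in each gate and library, with phagocytes of the library with both compounds as the source throughout. Open triangles mark gates with 0 UMIs, drawn at the level of 3 UMIs. Vehicle Cxcl2 and all wall-cell Cxcl1 lie to the right of their diamonds, while endothelial Ccl2 of the library with both compounds lies beside its diamond.

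Receptors of these ligands were found in leukocytes and in wall cells, differing by receptor. Cxcr2 was present in 92.7% of neutrophils (1292 CPM) and in no endothelial cell or fibroblast of that library. Ccr2 was present in 80.2% of phagocytes (985 CPM) and Cx3cr1 in 49.1% (142 CPM). Cxcr4 was present in 44 of 55 neutrophils, 74.1% of B cells and 55.0% of T cells. Ackr3, the scavenger of CXCL12, was an endothelial and fibroblast transcript, at 325, 436 and 108 CPM in endothelial cells (vehicle, sunitinib, both compounds) and 324 CPM in fibroblasts. Il1r1, the receptor of interleukin-1, stood at 31.2, 23.9 and 83.6 CPM in smooth muscle and 209 CPM in fibroblasts of the third library. Il6st, the signalling subunit of the IL-6 receptor, stood at 328, 423 and 288 CPM in endothelial cells and 63.3, 58.6 and 92.0 CPM in smooth muscle.

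Other genes of the pathway were counted in 4 lists for sunitinib against vehicle, to be read beside the shares of all genes past the fold (4.70% lower and 7.77% higher in smooth muscle, 5.64% and 13.4% in endothelial cells). In smooth muscle, 9 of 26 other chemokines and cytokines had enough UMIs, with 4 lower, 1 higher and a median log2 ratio of -0.55. The lowest were Cxcl10, an interferon-induced chemokine, at -1.79 and Il33 at -1.07, and the highest Csf1 at 0.27 and Il11 at 0.96. Of 9 measured receptors 2 were lower and 1 higher (median -0.11), with Cxcr4 at -1.14, Ackr3 at -0.60, Il6ra at 0.52 and Cxcr2 at 1.85, the last from 26 against 8 UMIs. Of 21 genes of the NF-kappaB machinery 3 were lower and none higher (median 0.02). They were Bcl3, another nuclear I-kappaB protein, at -1.82, the deubiquitinase gene Tnfaip3 at -1.16, and the subunit gene Rel at -0.84, while Rela stood at 0.06 and Nfkb1 at -0.10. The highest of the list were Nfkbie at 0.39 and Tnip1 at 0.37. Of 8 genes of mRNA decay and feedback 3 were lower and 1 higher (median -0.50). Zfp36, whose protein destabilises cytokine mRNAs, stood at -0.82, Zfp36l1 at -0.79, Dusp1 at -0.14 and the glucocorticoid-induced gene Tsc22d3 at 1.24.

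In endothelial cells fewer genes of these lists had enough UMIs. Of 3 other chemokines 1 was lower (median -0.03), with Cxcl10 at -3.68 from 6 against 64 UMIs, Csf1 at -0.03 and Cxcl16 at 0.15. None of 5 receptors was past the fold (median 0.01), from Il1r1 at -0.16 to Il6st at 0.37 and Ackr3 at 0.42. Of 19 machinery genes none was lower and 1 higher (median 0.03), with Myd88 at -0.57, Nfkbib at 0.57 and Birc3, which encodes an inhibitor of apoptosis, at 1.20. Of 8 decay and feedback genes 1 was lower and 1 higher (median -0.24), with Zc3h12a, the gene of an RNase that cuts Il6 mRNA, at -0.79, Zfp36l1 at -0.51, Socs3 at -0.10 and Tsc22d3 at 0.65. The adhesion genes Vcam1 and Icam1 of the machinery list stood at -0.50 and -0.43, within the fold, beside Birc3 at 1.20 and the list median of 0.03. In smooth muscle Vcam1 stood at 0.36 and Icam1 at -0.46. For both compounds against sunitinib in endothelial cells, 5 of 8 other chemokines were higher and 1 lower, with Ccl21a at 864 and Cxcl9 at 205 UMIs against 0 in the sunitinib library, and Cxcl16 at -2.28. Of 9 receptors 7 were higher and 1 lower, with Ackr3 at -2.02 and Cx3cr1 at 4.07. There 9 of 20 machinery genes were higher and 4 lower, Vcam1 and Icam1 among the lower at -2.40 and -2.48, and of 8 decay and feedback genes 5 were lower and 2 higher, with Ier3 at -2.68, Socs3 at -1.98, Zfp36l1 at 0.72 and Zc3h12a at 0.81. These shares stand beside the 57.1% of all genes that were apart in that comparison.

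The genes most like 4 of the members were sought over the 11 gate and library sums with at least 50 cells, by Pearson correlation of log2(CPM + 1) among 9173 genes with at least 1000 UMIs. Over these 11 sums the nearest to Cxcl1 were Tgoln1 (0.94), Mia3 (0.93) and Pigc (0.91). The nearest to Cxcl12 were Stard13 (0.99), Ptprk (0.99) and Ptprg (0.98), and the nearest to Cx3cl1 were Sox13 (0.98), Epha4 (0.97) and Plxna2 (0.96). For Ccl2 they were Ripk1 (0.94), Tgfbi (0.90) and Spp1 (0.90). The sums share libraries and, within a gate, cell type, and the values are descriptions.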

How the data were processed

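Droplet 3' single-cell RNA sequencing of mouse arterial cells was measured in 3 libraries, 1 for each group. The authors deposited raw UMI counts per gene and barcode, aligned to mm10 with Cell Ranger and handled with Seurat per the submitters' processing notes. Per the file headers the library with both compounds came from Cell Ranger 7.1.0 and the other libraries from 6.0.0. The sources used here do not give its settings.

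Cells were kept from 500 UMIs and 300 genes upward, with no more than 15% of UMIs mitochondrial. The smooth muscle gate asked for Acta2 and Myh11 UMIs, together at least 30 per 10000, and the others for 1 UMI of each of 2 genes: Pecam1 and Cdh5, Dcn and Pdgfra, Csf1r and Cd68, Cd79a and Cd79b, Cd3d and Cd3e, or Csf3r and S100a8. Cells passing several gates were left out of every gate as mixed, and no doublet caller was run. Of the smooth muscle check markers 5 or 6 of 6, of the endothelial ones 5 of 6, and of those of the other gates with at least 50 cells all were present in at least 25% of cells. Deposited counts were summed per gate and library and given per 1000000 UMIs (CPM), and shares also after thinning each cell to 3000 UMIs. Shares carry exact binomial intervals, sums exact Poisson intervals and log2 ratios exact conditional binomial intervals, all at 95%. A UMI count of 0 was taken to allow up to 3 counts, a fixed rule and not an exact limit. The exact 95% limit is higher, at 0.0934% for 0 of 3947 cells. A gene is called past the fold at 1.5-fold with at least 20 UMIs over both libraries. PCR copies share a UMI, and the intervals cover counting error only. The ratio and its interval were tested on simulated Poisson counts of gate sums, the model that the interval assumes. That test does not cover the clumping of UMIs in few cells described above. The alternatives were other limits on mitochondrial UMIs and the smooth muscle gate, thinning, leaving out deep cells or cells with phagocyte markers, the posterior Hox split, TMM and median-of-ratios factors, a mean over cells, no UMI minimum and leaving out the top cell.

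All 10 members are described. From the other lists the counts, the medians and the 2 highest and 2 lowest ratios were to be named; Rel, Rela, Nfkb1, Vcam1 and Icam1 and the endothelial examples were picked after their values were seen. The members, lists and gates were chosen with earlier results of these data known. The analysis used Python 3.11.15, numpy 2.4.6, scipy 1.17.1, pandas 2.3.3 and matplotlib 3.10.9, with scaling factors from edgeR 4.0.16 and DESeq2 1.42.0 in R 4.3.3. No per-sample column was left unused.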

Additional observations from a re-analysis of the deposited data

Results flagged for a closer look

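Cells outside the gates or passing several gates took no part in the comparisons, and in 8 cases they stood above the level in every gate of at least 50 cells in the same library, that is smooth muscle and endothelial cells. Smaller gates stood higher: the 4 vehicle phagocytes had 2338 CPM of Cxcl2, 4774 of Il1b, 1345 of Nfkbia, 448 of Nfkbiz and 19.5 of Ccl2, and the 6 sunitinib fibroblasts 189 CPM of Nfkbiz. In the 50 ungated cells of the vehicle library Cxcl2 stood at 496 CPM and Il1b at 345 CPM, all 125 and 87 UMIs in 1 cell with 6888 UMIs, 146 phagocyte marker UMIs (7 of 10 markers) and no Csf1r UMI. In the same ungated cells Nfkbia stood at 631.0 CPM and Nfkbiz at 147 CPM. In the 33 vehicle cells passing several gates Ccl2 stood at 10.8 CPM, all 8 UMIs in 1 cell with 426 Dcn and 572 Acta2 UMIs, Nfkbia at 663.0 CPM and Nfkbiz at 131 CPM. In the 85 ungated cells of the sunitinib library Nfkbiz stood at 173 CPM.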

How the results depend on the processing

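No paired analysis was possible because each group was 1 library. The number of members past 1.5-fold in smooth muscle with sunitinib was 3, and 5 with TMM and 5 with median-of-ratios factors. For both compounds against sunitinib in endothelial cells it was 2, and 4 in cells with posterior Hox UMIs. For sunitinib in endothelial cells it stayed between 3 and 5. The endothelial Cx3cl1 ratio with sunitinib reversed to 0.35 as a mean over cells of each CPM, and the cause was not tested. In the 13 alternatives the smooth muscle ratios with sunitinib ranged from -2.21 to -0.99 for Cxcl1, from -5.31 to -0.97 for Cxcl2 and from -1.22 to -0.59 for Nfkbia. Endothelial Nfkbia ranged from -1.03 to -0.65 and Cxcl2 from -1.64 to -0.60, and Cxcl12 from 2.67 to 3.77 for both compounds. Of the alternatives for single members, 245 stayed inside the counting interval of the main value, 72 lay outside it and 1, the endothelial Cx3cl1 ratio, changed the sign of a value past the fold. The alternative with no UMI minimum leaves the ratio of a member unchanged. In these counts and in those out of 13 it therefore repeats the main value by design. Among values within the fold the sign turned for smooth muscle Il6 (to 0.76) and Nfkbiz (to -0.12) and endothelial Cxcl12 (to -0.42) with sunitinib, and for endothelial Cxcl2 (to 0.94) and Cx3cl1 (to -0.66) and smooth muscle Cxcl1 (from -0.85 to 0.97) with both compounds. Leaving out the cell with the most UMIs of a member, chosen after seeing the data, left endothelial Il1b with too few UMIs for a ratio. Few UMIs of Ccl2, Ccl7, Il6 and Il1b in smooth muscle and endothelial cells, and few smooth muscle cells (84) in the third library, limit the precision of those values.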
